A study of Mus musculus with 14 samples.

Results

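Serum response factor (Srf) and 6 genes known in other tissues as targets of SRF or of the transcriptional coactivator YAP were followed through 14 RNA-seq libraries of cultured mouse cortical neurons. The genes were Srf, Cyr61, Ctgf, Ankrd1, Amotl2, Vcl and Flna, taken by symbol from the 52459 gene symbols quantified. They had been chosen by symbol, with the KCl responses and the differences between the lines in these same libraries already known. Both of those contrasts are therefore given for the 7 genes as descriptions, with no p-value printed. Whether these genes passed a threshold is stated, with counts beside the share of all genes, and nothing is read from it. The filter on low counts kept 17732 symbols, among them 6 of the 7 genes. Ankrd1 was the gene left out.

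Neurons came from cortex of E16.5 embryos that carried a knock-in allele of BRG1, the motor subunit of BAF, a remodeller of chromatin, or from wild-type littermates. In SE neurons serine 1382 was changed to glutamate, in SA neurons to alanine. Libraries comprised 2 each of SE with KCl, SE basal, SA with KCl, SA basal, the SA line's wild type with KCl and the same wild type at basal, and 1 each of the SE line's wild type with KCl and at basal. All neurons received 1 µM tetrodotoxin, a sodium channel blocker, and 100 µM of the NMDA receptor blocker APV on day 5 in vitro, and KCl groups were then depolarised on day 6 for 1 h with 50 mM KCl. A mutant and the wild-type littermates bred with it are called a line here, and libraries are named by group and replicate number. In the labels a KCl and a basal library share a name and replicate number, but they are not said to come from the same culture. The labels do not say whether the numbered libraries were separate cultures or embryos, so the p-values measure the spread between these libraries, which may be technical. Genotypes rest on the labels, because expression tables do not show the exchanged codon.

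SRF binds the CArG box in promoters and works with 2 kinds of partner: ternary complex factors of the Elk family, which are activated by MAP kinase signalling and drive immediate early genes, and the MRTF coactivators (Mkl1 and Mkl2), which are held in the cytoplasm by monomeric actin and drive cytoskeletal genes. YAP and its relative TAZ (Wwtr1) are restrained by the Hippo kinases and, in the nucleus, bind DNA through TEAD factors, whose core motif is GGAATG. Cyr61 and Ctgf, secreted matricellular proteins of the CCN family, are standard readouts of YAP and are also SRF targets, while Vcl (vinculin, of focal adhesions) and Flna (filamin A, an actin crosslinker) belong to the cytoskeletal side. In neurons, SRF is best known for the immediate early response to activity.

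Promoter sequences of Srf, Cyr61 and Vcl are shown because Srf and Cyr61 had the largest KCl responses in SE neurons among the 6 of the 7 genes tested, and Vcl was the other gene with a CArG box. They are RefSeq sequences of GRCm38.p6, from 250 bases before to 50 bases after the start site, written 5′ to 3′ on the strand of the gene. Capitals mark the CArG box (CC, then 6 bases that are each A or T, then GG) and GGAATG, which reads CATTCC when it lies on the other strand.
Srf (chr17:46556113-46556412, minus strand): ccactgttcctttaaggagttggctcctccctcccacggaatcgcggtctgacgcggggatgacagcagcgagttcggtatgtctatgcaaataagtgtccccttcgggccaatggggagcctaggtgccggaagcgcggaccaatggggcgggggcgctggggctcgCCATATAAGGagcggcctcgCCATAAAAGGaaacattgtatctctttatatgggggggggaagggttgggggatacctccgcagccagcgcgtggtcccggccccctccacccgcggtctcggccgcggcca
Cyr61 (chr3:145649936-145650235, minus strand): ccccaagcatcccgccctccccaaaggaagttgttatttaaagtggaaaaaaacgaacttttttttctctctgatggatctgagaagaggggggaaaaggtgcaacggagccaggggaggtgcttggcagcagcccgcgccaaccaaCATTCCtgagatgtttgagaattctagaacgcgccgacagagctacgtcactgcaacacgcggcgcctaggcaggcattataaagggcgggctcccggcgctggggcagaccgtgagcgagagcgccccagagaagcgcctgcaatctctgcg
Vcl (chr14:20929148-20929447, plus strand): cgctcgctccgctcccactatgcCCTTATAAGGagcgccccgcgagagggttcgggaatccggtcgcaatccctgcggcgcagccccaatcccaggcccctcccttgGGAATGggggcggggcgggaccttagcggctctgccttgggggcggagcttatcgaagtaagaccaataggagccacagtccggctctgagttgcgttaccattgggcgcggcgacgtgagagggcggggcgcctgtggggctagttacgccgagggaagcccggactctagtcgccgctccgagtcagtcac
The Srf window held 2 CArG boxes, which began at positions -82 and -62 from the start site. Vcl held 1 at -227, with a GGAATG at -143. Cyr61 held a single GGAATG at -103 on the other strand and no CArG box in this window. Promoters were matched for 6 of the 7 genes, all but Ctgf. GGAATG also occurred at -210 and -123 in Ankrd1, at -65 in Amotl2 and at -146 in Flna. On either strand, a CArG box was present in 1.63% and GGAATG in 14.7% of 32851 RefSeq promoters of that length. The AP-1 motif TGANTCA (7.81% of promoters) and the CRE TGACGTCA (1.79%) were in none of the 6 windows. No match overlapped another, and a match describes letters only.

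Depth was even, between 22625916 and 23096206 estimated counts per library. Libraries of both lines carried markers of glutamatergic neurons in every library, with the 9 markers summing to 4809 to 5506 CPM (counts scaled to a common library size with TMM factors) in the SE line and 2950 to 4633 CPM in the SA line. Tubb3 (1325 to 2378 CPM) and Map2 (830 to 1504 CPM) made up most of these sums, while Slc17a7 ranged from 24.4 to 1043 CPM. Replicate 1 of the SA line's wild type stood apart: its 6 neural progenitor markers summed to 3015 CPM with KCl and 2832 CPM at basal, against 850 to 1775 CPM in the other 6 libraries of that line. These sums rest mainly on Vim, at up to 2308 CPM over the 14 libraries, and Nes, at up to 554 CPM. Sox2, the next, reached 140 CPM.

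Depolarisation raised Cyr61 36.1-fold and Srf 2.28-fold in SE neurons, while in SA neurons, where both were also higher with KCl, neither gene passed the threshold in a fit that did not pair libraries. A fit with a block for the replicate number called both in SA. Cyr61 stood at 659 and 559 CPM in SE neurons with KCl, against 20.3 and 13.4 CPM in SE neurons at basal. The SE line's wild type had 639 CPM with KCl and 22.6 CPM at basal, 1 library each. In both genotypes of that line the KCl and basal levels were thus far apart. SA neurons had 113 and 141 CPM of Cyr61 with KCl, against 44.4 and 108 CPM at basal. The SA line's wild type had 223 and 124 CPM with KCl, against 136 and 76.2 CPM at basal. In SA neurons both KCl libraries were above both basal ones, by little for one of them. In this wild type the groups overlapped, but each KCl library was above the basal library of its number. Replicate 1 had 223 CPM with KCl against 136 CPM at basal, and replicate 2 had 124 CPM against 76.2 CPM. Fitted log2 changes of Cyr61 were 5.18 ± 0.52 in SE (36.1-fold; ± is the standard error of the model throughout), 4.82 ± 0.72 in the SE line's wild type (28.3-fold), 0.73 ± 0.44 in SA and 0.71 ± 0.44 in the SA line's wild type, where it was 0.71 ± 0.49 without replicate 1.

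Srf itself, the transcription factor of the group, had 192 and 159 CPM in SE neurons with KCl, against 75.7 and 78.1 CPM in SE neurons at basal. Its level in the SE line's wild type was 149 CPM with KCl and 73.2 CPM at basal. SA neurons had 89.9 and 92.7 CPM with KCl, against 56.8 and 69.5 CPM at basal, and the SA line's wild type had 93.4 and 90.0 CPM with KCl, against 74.1 and 63.5 CPM at basal. In each of the 4 genotypes and lines every KCl library exceeded every basal one, although the SE line reached higher levels. Log2 changes were 1.19 ± 0.14 in SE (2.28-fold), 1.02 ± 0.19 in the SE line's wild type, 0.53 ± 0.13 in SA and 0.41 ± 0.13 in the SA line's wild type.

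**Figure D1:**
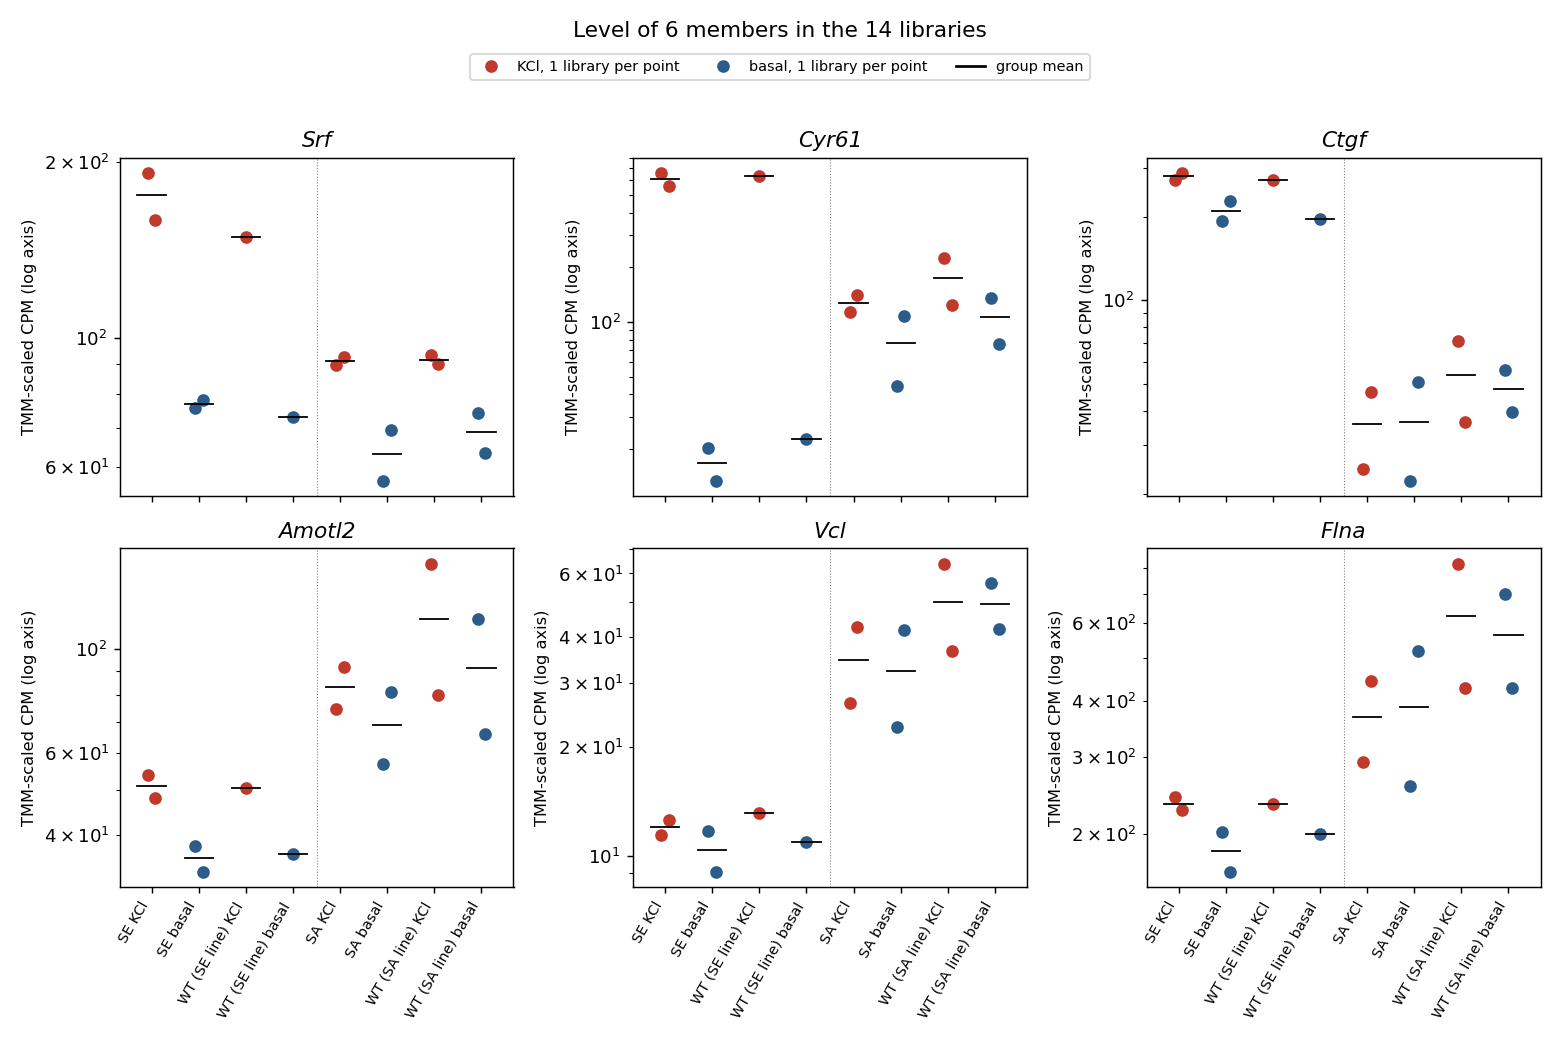
TMM-scaled CPM (log axis) of Srf, Cyr61, Ctgf, Amotl2, Vcl and Flna in the 14 libraries, by genotype, line and treatment, with 1 point per library and a bar at the group mean; the dotted line parts the SE line (left) from the SA line. Cyr61 lies between 559 and 659 CPM in the 3 SE-line libraries with KCl and between 13.4 and 22.6 CPM in the 3 at basal, while Ctgf is higher and Amotl2, Vcl and Flna are lower in the SE line than in the SA line.

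The other 4 members tested had smaller log2 changes and did not pass the threshold in the fit over all libraries. Ctgf, the CCN paralog of Cyr61, had 273 and 288 CPM in SE neurons with KCl, against 193 and 228 CPM at basal, a log2 change of 0.41 ± 0.42. Its change was -0.03 ± 0.43 in SA. Ctgf was thus abundant in SE neurons before depolarisation as well as after it, which Cyr61 was not. Amotl2, an angiomotin-like protein of cell junctions that binds YAP, had 53.9 and 48.2 CPM in SE neurons with KCl, against 37.9 and 33.5 CPM at basal, a log2 change of 0.52 ± 0.33, and its change in SA was 0.27 ± 0.33. A fit of the SE line's libraries by themselves gave 0.50 for Amotl2 in SE and put it past the threshold. Ctgf, Amotl2 and Flna were higher in every KCl library of the SE line than in every basal one. Ctgf had 272 to 288 CPM with KCl and 193 to 228 CPM at basal. Amotl2 had 48.2 to 53.9 CPM with KCl and 33.5 to 37.9 CPM at basal. Flna had 227 to 242 CPM with KCl and 165 to 203 CPM at basal. For Vcl these ranges overlapped. Vcl changed by 0.21 ± 0.37 in SE and 0.10 ± 0.35 in SA. Flna changed by 0.35 ± 0.40 in SE and -0.08 ± 0.40 in SA. Ankrd1, an ankyrin repeat protein induced by YAP and by stretch in muscle, was close to undetected: 9 of 14 libraries had no count, no library had more than 3, and the total over all libraries was 8. A count of 3 per library corresponds to 0.130 to 0.133 CPM before TMM scaling, so no fold change is given.

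With calls made at an adjusted p under 0.05 (edgeR, Benjamini-Hochberg over the 17732 genes), 2 of the 6 members tested were called in SE, Srf and Cyr61, both higher, where 1.66% of all genes were called and 1.22% were called higher. In SA 0 of 6 were called, with 0.846% of all genes called; edgeR gave 1 member (Srf) an unadjusted p under 0.05, and DESeq2 called 0 of 6, both without pairing of libraries. Over the 3 wild-type replicates Srf (0.62 ± 0.11) and Cyr61 (2.08 ± 0.37) were called, 2 of 6, with 1.41% of all genes called and 1.05% called higher. Since the members had been chosen with these contrasts known, nothing is read from the counts. The wild-type mean joins replicates with very different responses. It lost both calls without the KCl library of replicate 1 of the SA line's wild type (Srf 0.60, Cyr61 1.76) or without the basal library of replicate 2 (Srf 0.55, Cyr61 1.84), and it lost Srf without the KCl library of replicate 2 (0.63). Without both libraries of replicate 1 the calls were kept, at 0.68 for Srf and 2.08 for Cyr61.

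**Figure D2:**
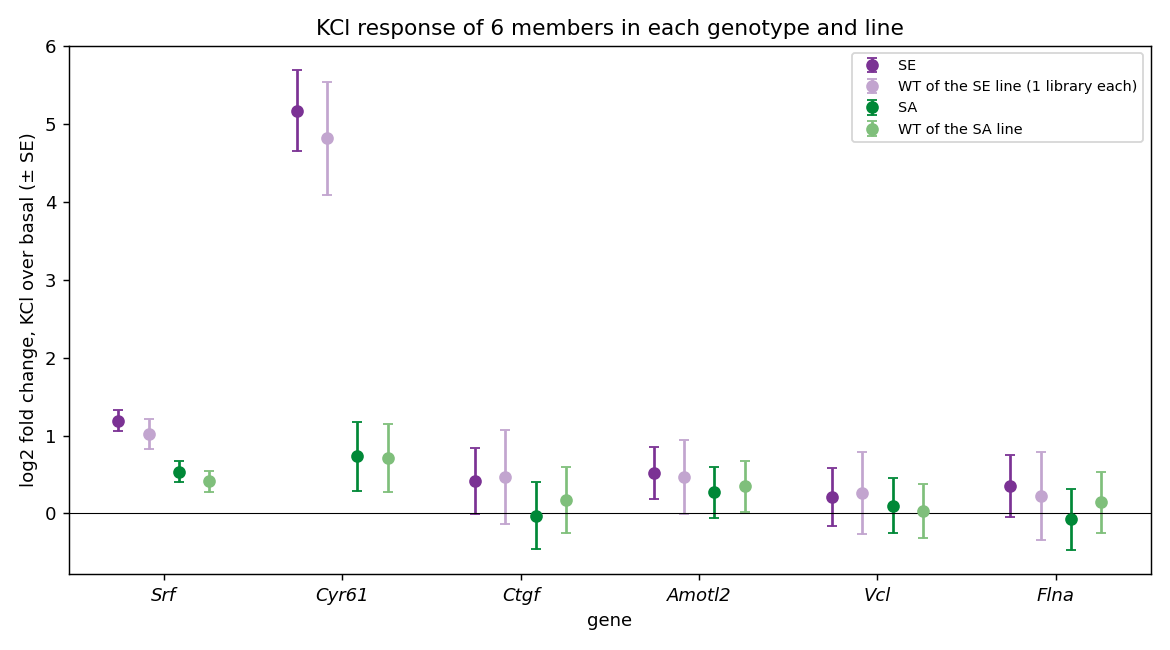
Log2 fold change of KCl over basal (points, with the standard error of the model as bars) for the 6 members tested in SE, the SE line's wild type, SA and the SA line's wild type. Cyr61 reaches 5.18 in SE and 4.82 in its wild type but 0.73 in SA and 0.71 in its wild type, and Ctgf, Amotl2, Vcl and Flna lie between -0.08 and 0.52.

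Among other SRF target genes, the immediate early ones rose and the cytoskeletal ones did not pass the test. The gene lists, here and below, were chosen with earlier results of these data known. Their counts and adjusted p-values are therefore descriptions and no independent support. All 10 immediate early SRF targets rose in SE (median log2 7.12, against 0.01 over all genes), 9 of 10 in SA (median 5.68) and 10 of 10 in wild type (median 5.77). Egr1, an early zinc finger factor, rose by 6.90 ± 0.18 in SE (edgeR adjusted p = 8.04e-08) and by 5.00 ± 0.17 in SA (3.98e-07). Nr4a1, an orphan nuclear receptor, rose by 7.87 ± 0.19 in SE (7.37e-08) and by 6.60 ± 0.18 in SA (1.38e-07). Egr3 was the one gene not called in SA (2.54 ± 0.49, adjusted p = 0.0551); DESeq2 called all 10 there. The 19 cytoskeletal SRF targets, among them smooth muscle actin (Acta2) and the LIM domain protein Fhl1, gave 0 calls in SE, SA and wild type, with medians of 0.11, -0.11 and 0.11. edgeR gave 0 of the 19 an unadjusted p under 0.05 in any of the 3, and DESeq2 called 0.

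The SRF cofactors and the Hippo pathway gave no KCl calls with edgeR. Of the 5 SRF cofactors tested (Mkl1, Mkl2, Elk1, Elk3 and Elk4) 0 were called, and 1 had an unadjusted p under 0.05 in SE and 1 in wild type, or 3 in wild type without replicate 1 of the SA line's wild type. Elk4, a ternary complex factor, was the nearest, at 0.70 ± 0.16 in SE (adjusted p = 0.0724), and DESeq2 called it there. Of 17 Hippo genes 0 were called in any genotype by either tool, and edgeR gave 1 of them an unadjusted p under 0.05 in SE and 0 in SA and wild type. Yap1 stood at 0.30 ± 0.29 in SE (adjusted p = 0.993) and 0.17 ± 0.28 in SA (adjusted p = 1). Of 18 other YAP and TAZ targets 1 was called, Fjx1, whose Drosophila counterpart regulates Fat and Dachsous signalling, which rose by 1.15 ± 0.14 in SE (adjusted p = 0.00274) and 0.60 ± 0.12 in wild type (0.0411), with 0.47 ± 0.14 in SA (0.362). Axl, a receptor tyrosine kinase and common YAP readout, stood at 0.14 ± 0.23 in SE and -0.07 ± 0.22 in SA. The remaining CCN genes tested, Nov, Wisp1 and Wisp2, gave 0 calls by either tool, and 0 had an unadjusted p under 0.05. The markers of glutamatergic neurons, astrocytes, progenitors, meningeal fibroblasts, endothelial and mural cells and microglia gave 0 calls with KCl by either tool; edgeR gave at most 1 marker of a list an unadjusted p under 0.05 in a genotype.

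**Figure D3:**
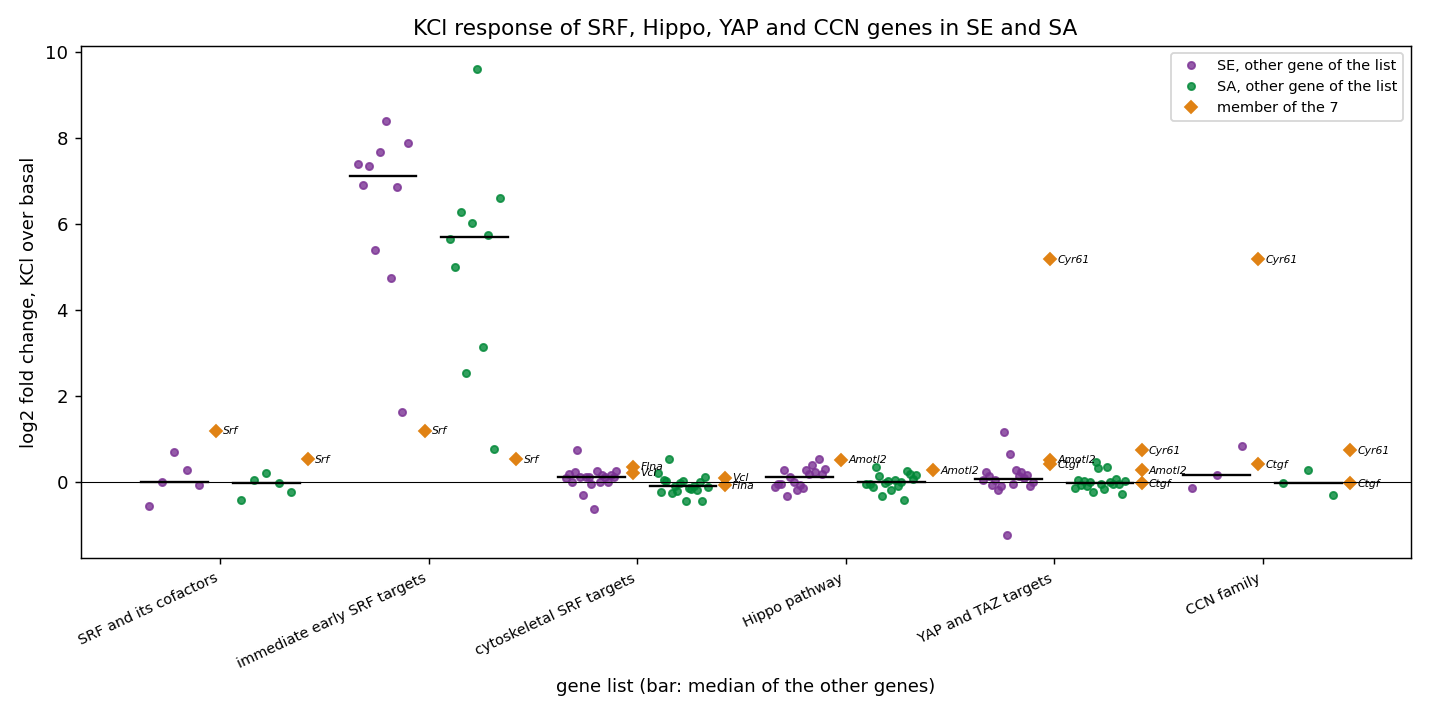
Log2 fold change of KCl over basal in SE (purple) and SA (green) for genes of 6 pathway lists, 1 point per gene, with a bar at the median of the genes that are not among the 7 and orange diamonds for the 7. The immediate early SRF targets have medians of 7.12 in SE and 5.68 in SA, while the cytoskeletal SRF targets and Hippo genes lie around 0.

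No member differed past the threshold between a BRG1 mutant and its wild type. In each of 6 comparisons (SE against its wild type and SA against its wild type, at basal and with KCl, and the difference in KCl response of each) edgeR called 0 of 6 members and gave 0 of 6 an unadjusted p under 0.05. Over all genes 0 were called too, a share of 0%, with unadjusted p under 0.05 for 187 to 2040 genes in the 4 level comparisons and 122 to 159 in the response comparisons. DESeq2 likewise called 0 members in each of the 6, and over all genes it called 119 in SA with KCl, 1 in SE with KCl, 1 in the SE response difference and 0 in the other comparisons. Of the pathway lists both tools called 0 genes in the 6 comparisons; at an unadjusted p under 0.05 edgeR had 6 of 17 Hippo genes and 3 of 19 cytoskeletal SRF targets in SA with KCl, and at most 2 genes of a list elsewhere. Without replicate 1 of the SA line's wild type these were 1 of 17 Hippo genes and 0 of 19 cytoskeletal SRF targets. The intervals of the differences were wide. The KCl response of Cyr61 in SE differed from that in its wild type by 0.35 ± 0.77 (95% interval -1.36 to 2.07, adjusted p = 1), and in SA by 0.02 ± 0.62 (-1.36 to 1.40, adjusted p = 1). For Srf the differences in response were 0.17 ± 0.23 in SE (adjusted p = 1) and 0.12 ± 0.19 in SA (adjusted p = 1).

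By level, Cyr61 in SE differed from its wild type by -0.42 ± 0.55 at basal and -0.07 ± 0.53 with KCl (adjusted p = 1 for both), and Srf by 0.07 ± 0.17 and 0.24 ± 0.17 (adjusted p = 1 for both). In SA, Cyr61 differed from its wild type by -0.47 ± 0.44 at basal (adjusted p = 0.714) and -0.45 ± 0.44 with KCl (0.654), and Srf by -0.12 ± 0.13 (0.755) and -0.01 ± 0.13 (0.992). Flna, at 291 and 444 CPM in SA with KCl against 817 and 427 CPM in its wild type, had the lowest p of the 24 member values by level, at -0.76 ± 0.40 (unadjusted p = 0.0869, adjusted p = 0.472). The groups overlapped, and the high wild-type value was replicate 1. Vcl stood at -0.61 ± 0.35 at basal (adjusted p = 0.622) and -0.54 ± 0.35 with KCl (0.534). Without replicate 1 the SA differences with KCl were -0.22 for Flna, -0.08 for Vcl, 0.03 for Cyr61 and 0.02 for Srf, and at basal -0.14 for Flna, -0.38 for Vcl, 0.01 for Cyr61 and -0.01 for Srf. Of the 9 meningeal fibroblast markers edgeR called 0 in SA against wild type, but 7 at basal and 6 with KCl had an unadjusted p under 0.05, with medians of -0.92 and -0.86; without replicate 1 these were 7 and 5, with medians of -0.71 and -0.61. Their part in the Flna and Vcl values was not tested.

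Before any KCl, 5 of the 6 members differed between the lines, where 45.8% of all genes were called. Ctgf was called higher in the SE line (20.7% of all genes were), and Cyr61, Amotl2, Vcl and Flna were called lower (25.2% of all genes were). The median over the 6 members was -1.21, against 0.00394 over all genes. Ctgf had 193 and 228 CPM in SE neurons and 197 CPM in their wild type, against 22.3 and 50.6 CPM in SA neurons and 56.1 and 39.5 CPM in theirs. The log2 difference was 2.29 ± 0.34 (4.88-fold), and no library of one line reached the other's range. Cyr61 went the other way at basal, with -2.21 ± 0.39.

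Vcl had 11.7 and 9.06 CPM in SE neurons and 10.96 CPM in their wild type, against 22.7 and 42.0 CPM in SA neurons and 56.4 and 42.2 CPM in theirs, a log2 difference of -1.90 ± 0.31. Flna had 203 and 165 CPM in SE neurons and 200.3 CPM in their wild type, against 257 and 519.5 CPM in SA neurons and 699 and 429 CPM in theirs, a difference of -1.29 ± 0.33. Amotl2 ranged from 33.5 to 37.9 CPM in the SE line and from 56.7 to 116 CPM in the SA line (-1.13 ± 0.27). For these 3 genes, too, the lines did not overlap in CPM. Srf stood at 0.19 ± 0.11, was not past the threshold, and its ranges of 73.2 to 78.1 CPM in the SE line and 56.8 to 74.1 CPM in the SA line overlapped. Without replicate 1 of the SA line's wild type the same 5 were called, from -1.97 for Cyr61 to 2.42 for Ctgf.

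Genes of the same pathways differed between the lines at basal as well, in both directions and in a contrast that called 45.8% of all genes. Of the 10 immediate early SRF targets 4 were higher and 2 lower in the SE line (median 0.38), with the AP-1 subunit Fosb at 2.65 ± 0.23 (edgeR adjusted p = 3e-05) among the higher and Egr3 at -1.64 ± 0.42 (0.0103) among the lower. Of 19 cytoskeletal SRF targets 10 were lower and 3 higher in the SE line (median -1.18), with Fhl1 at -1.18 ± 0.14 (adjusted p = 1.7e-04) and Acta2 at -4.17 ± 0.59 (4.35e-04) among the lower and Fhl2, another LIM domain protein, at 1.16 ± 0.18 (6.25e-04) among the higher. Of 17 Hippo genes 11 were lower and 1 was higher (median -1.25), among them Yap1 at -1.71 ± 0.24 (4.17e-04), Wwtr1 at -2.06 ± 0.27 (2.82e-04) and Tead1 at -2.01 ± 0.31 (7.27e-04). Nf2, which encodes the upstream Hippo regulator merlin, was the 1 higher, by 0.32 ± 0.12 (adjusted p = 0.0471). Of the YAP and TAZ targets 9 were lower and 2 higher (median -0.75), with Axl at -2.27 ± 0.19 (2.79e-05) and Gadd45a, a stress-induced growth arrest gene, at 2.18 ± 0.33 (6.78e-04); Lats2 stands in this list and the Hippo list. The SRF cofactors divided: Mkl2 (1.05 ± 0.25, adjusted p = 0.00743), Elk1 (0.61 ± 0.21, 0.0368) and Mkl1 (0.44 ± 0.11, 0.00969) were higher, while Elk3 (-1.59 ± 0.33, 0.00381) and Elk4 (-0.86 ± 0.13, 5.54e-04) were lower. Wisp2 was the 1 called of the 3 remaining CCN genes, at -3.65 ± 0.80 (0.00461). Without replicate 1 of the SA line's wild type, where 48.5% of all genes were called, the counts were 10 lower and 4 higher for the cytoskeletal targets, 11 and 0 for the Hippo genes, 10 and 4 for the YAP and TAZ targets, 2 and 5 for the immediate early targets, 2 and 3 for the cofactors and 2 and 0 for the CCN genes.

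**Figure D4:**
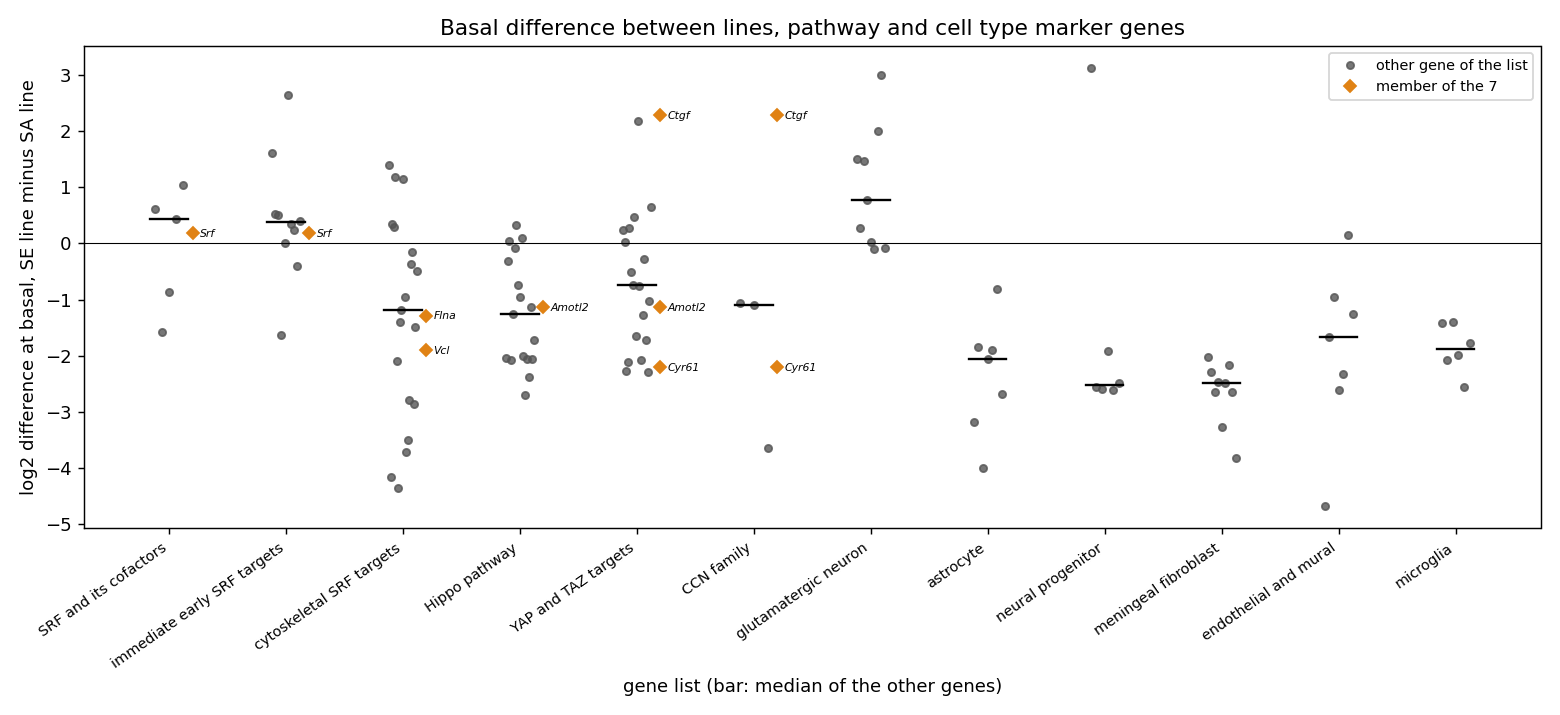
Log2 difference at basal, SE line minus SA line, for each gene of 6 pathway lists and 6 cell type marker lists, with a bar at the median of the genes that are not among the 7 and orange diamonds for the 7. Ctgf sits at 2.29 above 0, while Amotl2 (-1.13) and Flna (-1.29) sit near the medians of the Hippo (-1.25) and cytoskeletal (-1.18) lists, and Vcl (-1.90) and Cyr61 (-2.21) lie below both.

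Markers of non-neuronal cells moved with the same contrast. All 9 of 9 meningeal fibroblast markers and 7 of 7 astrocyte markers were lower in the SE line, as were 5 of 6 microglial and 5 of 7 tested endothelial and mural markers; of 6 progenitor markers 5 were lower and 1, Eomes, was higher. Over both treatments, meningeal fibroblast markers summed to 35.4 to 53.3 CPM in the SE line and 187 to 486 CPM in the SA line. Astrocyte markers summed to 445 to 566 CPM in the SE line and 1735 to 2760 CPM in the SA line, and progenitor markers to 273 to 353 CPM in the SE line and 850 to 3015 CPM in the SA line. Endothelial and mural markers summed to 16.1 to 21.98 CPM in the SE line and 57.3 to 90.6 CPM in the SA line, and microglial markers to 12.9 to 19.3 CPM in the SE line and 55.2 to 71.4 CPM in the SA line. Of the endothelial and mural markers, Cldn5 was at 0 in 3 libraries, Cdh5 in 2 and Kcnj8 in 3. Of 9 glutamatergic markers 4 were higher and 0 lower in the SE line, and 5 were higher without replicate 1 of the SA line's wild type. In bulk RNA, fewer cells of a type and less RNA per cell cannot be told apart, and the line cannot be told apart from anything else that differed between the 2 sets of libraries. The part of these cell types, neuronal or not, in the differences of Ctgf, Vcl, Flna, Amotl2 and Cyr61 was not tested. Ctgf was higher in the SE line, as were Eomes and 4 of the 9 glutamatergic markers, while most non-neuronal markers were lower.

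**Figure D5:**
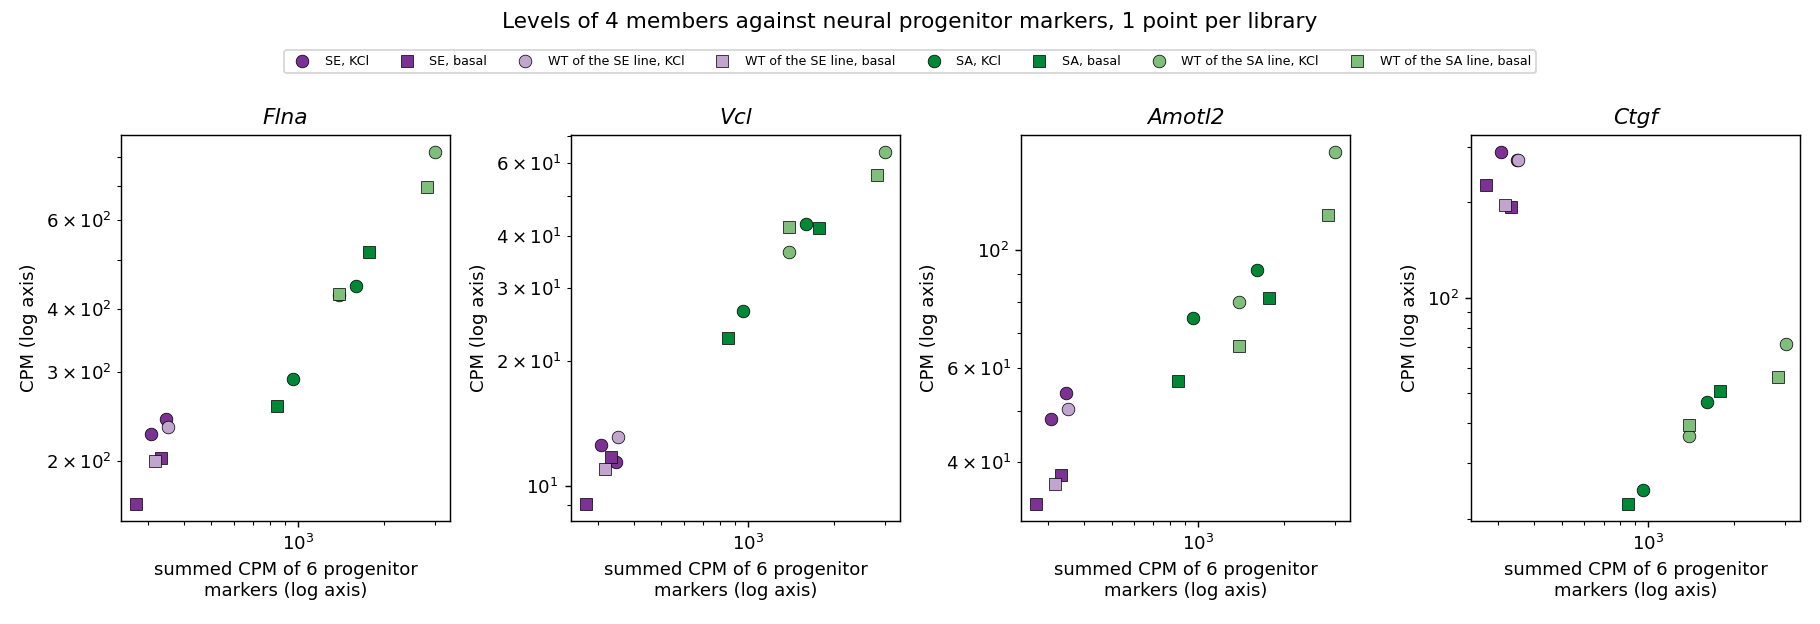
CPM of Flna, Vcl, Amotl2 and Ctgf (log axis) against the summed CPM of 6 neural progenitor markers (log axis), 1 point per library, coloured by genotype and line with circles for KCl and squares for basal. The sum rests mainly on Vim and Nes. The SE-line libraries lie at 273 to 353 CPM of markers and the SA-line libraries at 850 to 3015 CPM; Flna, Vcl and Amotl2 are higher in the SA line and Ctgf is lower.

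With line means subtracted, the levels of Ctgf, Amotl2, Vcl and Flna were correlated, and in the SA line the progenitor markers moved with them. Across the 14 libraries the Pearson correlation of log2 CPM was 0.96 between Vcl and Flna, 0.96 between Amotl2 and Flna and -0.76 between Ctgf and Vcl. After each line's mean was subtracted it was 0.97, 0.89 and 0.92, so Ctgf opposed Vcl between lines and went with it once line means were removed. These centred values pool both lines and were not computed within each line. Vcl ranged from 22.7 to 63.8 CPM in the SA line and from 9.06 to 13.2 CPM in the SE line. Without replicate 1 of the SA line's wild type the centred values were 0.94, 0.72 and 0.86 over 12 libraries. In the SA line Vcl was 26.5 and 22.7 CPM in the libraries with 961 and 850 CPM of summed progenitor markers, and 63.8 and 56.4 CPM in those with 3015 and 2832 CPM. The other 4 libraries of that line had 36.6 to 42.8 CPM of Vcl and 1388 to 1775 CPM of markers. The part of the progenitor markers, whose sum rests mainly on Vim and Nes, in these correlations was not tested. Srf and Cyr61 gave 0.79, and 0.94 after centring by line. The points share line, treatment and library, and these values are descriptions. By a rule that took the 5 named genes most like Cyr61 over the 14 libraries, from 13139 candidates, the genes were Elmsan1 (Pearson r = 0.96), Zfp36 (0.95), Acin1 (0.95), Mcl1 (0.94) and Hic1 (0.94). Hic1, a transcriptional repressor, averaged 17.3 CPM in SE with KCl and 0.816 CPM in SE at basal, against 7.23 CPM in SA with KCl and 2.07 CPM in SA at basal.

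The KCl response of Cyr61 was larger in the SE line than in the SA line by 4.28 ± 0.52 on the log2 scale, the mean of mutant and wild type in each line. Among the 6 members tested it was the 1 past the threshold, which 0.107% of all genes passed and 0.102% passed on the higher side. The basal levels entered this difference as well as the induced ones: the SE line had 13.4 to 22.6 CPM of Cyr61 at basal and 559 to 659 CPM with KCl, and the SA line 44.4 to 136 CPM at basal and 113 to 223 CPM with KCl. The ranges did not overlap at either treatment. For Srf the difference in response was 0.63 ± 0.15 and not past the threshold; Ctgf, Flna, Amotl2 and Vcl ranged from 0.17 to 0.37. Of the 10 immediate early SRF targets 3 passed with edgeR, Arc (1.97 ± 0.22, adjusted p = 0.00788), Egr1 (1.77 ± 0.16, 0.00459) and Ier2 (1.60 ± 0.22, 0.0369). DESeq2 called 8 of them, and 0.362% of all genes. Without replicate 1 of the SA line's wild type the median difference of the 10 was 1.23. The Cyr61 call was lost when SA KCl 1, SE KCl 1, SE basal 1 or SE basal 2 was left out (log2 4.22, 4.23, 4.46 and 4.16), and its value stayed between 3.88 and 4.53 with any 1 library left out.

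Per unit of length, the order of the genes depended on line and treatment. In TPM, a unit that takes transcript length into account, SE neurons with KCl had 458 ± 51 of Cyr61, 185 ± 7.6 of Ctgf, 86.3 ± 5.6 of Flna, 56.1 ± 7.0 of Srf, 18.3 ± 1.9 of Amotl2 and 6.80 ± 0.83 of Vcl (SD, n = 2), with no overlap between neighbours. At basal, SE neurons had 138 ± 15 TPM of Ctgf, 66.8 ± 4.3 of Flna, 24.3 ± 0.31 of Srf, 12.7 ± 2.2 of Amotl2, 12.5 ± 3.8 of Cyr61 and 4.23 ± 0.12 of Vcl (SD, n = 2). Amotl2 and Cyr61 did not differ beyond their spread there. SA neurons at basal had 93.1 ± 36 TPM of Flna, 61.6 ± 35 of Cyr61, 26.6 ± 5.0 of Amotl2, 25.2 ± 13 of Ctgf, 21.7 ± 2.7 of Srf and 12.4 ± 5.9 of Vcl (SD, n = 2). Flna and Cyr61 overlapped, as did Amotl2, Ctgf and Srf, and Ctgf and Vcl. Cyr61 was thus the most abundant of the 7 in depolarised SE neurons and level with Amotl2 in SE neurons at basal.

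Transcript values showed how much of each gene rested on one model. Srf, Cyr61 and Ankrd1 had 1 quantified transcript each, and 93.7% to 99.4% of Ctgf was in 1 of its 3 transcripts. Vcl was divided between the full-length Vcl-201 (chr14:20929398-21033676, 21 exons) and the short Vcl-202 (chr14:21022003-21027217, 3 exons), which took 0% to 51.6% of the gene's TPM. Full-length Vcl-201 ranged from 2.57 to 3.90 TPM in the SE line and from 7.36 to 22.2 TPM in the SA line, so its ranges did not overlap either. Flna had 15 transcripts, and Flna-213, annotated as a target of nonsense-mediated decay, took 23.6% to 35.3% of its TPM. The protein-coding Flna-201 took up to 36.7%, and the retained-intron models Flna-212 and Flna-204 took up to 35.1% and 18.5%. In TPM, unlike CPM, the lines overlapped for Flna. SE basal 1 had 69.8 TPM against 67.9 TPM in SA basal 1, and SE KCl 1 had 90.3 TPM against 71.5 TPM in SA KCl 1. Amotl2 had 14 transcripts, of which Amotl2-201 took 30.3% to 82.1% of the gene's TPM. In SE neurons Amotl2-201 had 5.96 and 9.57 TPM with KCl, against 9.62 and 8.17 TPM at basal. Amotl2-211, another protein-coding model, had 8.85 and 4.71 TPM in SE neurons with KCl, against 0.416 and 0.0998 TPM at basal. In SE neurons with KCl the higher gene total of Amotl2 was thus assigned to Amotl2-211 and not to Amotl2-201, whose groups overlapped. The SE line's wild type, 1 library each, differed. There Amotl2-203, also protein-coding, had 6.73 TPM with KCl and 1.24 TPM at basal, and Amotl2-211 had 2.06 and 0.979 TPM. Amotl2-203 averaged 1.98 TPM with KCl and 2.53 TPM at basal in SE neurons. In the SA line Amotl2-211 ranged from 0.698 to 7.21 TPM with KCl and from 0.504 to 5.06 TPM at basal. Such shares are estimates of a model that divides reads among transcripts with shared sequence, and their error was not measured. The 7 genes lie on 7 chromosomes (GRCm38, GENCODE M21): Srf at chr17:46548329-46556175, Cyr61 at chr3:145646976-145649981, Ctgf at chr10:24595442-24598683, Ankrd1 at chr19:36111961-36120099, Amotl2 at chr9:102716672-102733418, Vcl at chr14:20929398-21033676 and Flna at chrX:74223461-74249820.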

How the data were processed

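Total RNA of 14 libraries was sequenced from poly-ornithine and fibronectin cultures. Transcripts were quantified with kallisto 0.43.1; the submitters' processing notes also name the build GRCm38, or mm10. The authors deposited estimated counts, which need not be whole (66.0% of nonzero gene values were not), and TPM, both per transcript (131100) and per gene symbol. The summing of gene values and the use of strand are not given in the sources used here, so a gene and an antisense partner may share reads. All sample columns were used. Sample groups were read from the sample labels.

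Counts per gene were rounded, then fitted in edgeR 4.0.16 (R 4.3.3): filterByExpr on 6 combinations of genotype and treatment, TMM scaling, and glmQLFit with 8 group means over all 14 libraries (6 residual degrees of freedom), glmQLFTest, and Benjamini-Hochberg adjustment over 17732 genes with calls under 0.05. The single wild-type libraries of the SE line were thereby assumed to vary like the others. CPM are scaled by the TMM library size. Line contrasts average mutant and wild type. DESeq2 1.42.0, RLE factors, no filter, fits within a line, a replicate block and left-out libraries were alternatives. The fit was tested on simulated data. A limit of 3 counts covers counting error only.

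The 7 genes, the lists of related genes and the marker lists were chosen with earlier results of these data known. Named genes were the 7, measured CCN, SRF cofactor and Hippo genes, up to 4 genes with the lowest p per other list in KCl and in mutant or line comparisons, and the 5 most like Cyr61; not all are named, and Egr3, Eomes, Cldn5, Cdh5 and Kcnj8 were named after their values were seen.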

Additional observations from a re-analysis of the deposited data

Results flagged for a closer look

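The KCl response of Cyr61 differed between the lines by 4.28 ± 0.52 on the log2 scale, SE line minus SA line, past the threshold used for all genes by the test of the difference itself. Since Cyr61 had been chosen with this difference known, the value is a description. The log2 response was 5.18 in SE and 4.82 in its wild type, against 0.73 in SA and 0.71 in its wild type.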

How the results depend on the processing

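Libraries in groups of 2, and single ones in the SE line's wild type, limited all comparisons; the SE-line wild type could not be left out without emptying a group. Of 490 alternatives for the member values named in the text, 440 kept direction and side of the threshold, 11 lost the call, 7 gained it and 32 changed sign; 20 further member values had 188 alternatives, of which 37 changed sign and 0 were called. The count of members called differed from the reported one in the cases that follow.

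For KCl in wild type 2 members were called, 0 when the wild-type libraries were fitted by themselves, and 0 to 2 with 1 library left out. For the difference in KCl response between lines it was 1, and 0 to 1 with 1 library left out. A fit of the SE line by itself called 3 members in SE, against 2, with Amotl2 gained. Equal numbers of KCl and basal libraries were not taken as pairs, since their deviations from group means correlated by 0.37 in SA, 0.62 in the SA line's wild type and -0.05 in SE. Summed progenitor markers did go with the number. With KCl and at basal they were 961 and 850 CPM in SA replicate 1, and 1601 and 1775 CPM in replicate 2. In the SA line's wild type they were 3015 and 2832 CPM in replicate 1, and 1394 and 1388 CPM in replicate 2. Whether such libraries are pairs was not tested. With the replicate block the counts were 2 in SA (0 without it), 4 in SE (2 without it), 3 in wild type (2 without it) and 2 for the line response (1 without it); the calls gained were Srf (log2 0.54) and Cyr61 (0.85) in SA, Ctgf and Amotl2 in SE, Amotl2 in wild type and Srf for the line response.

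Sign changes, all of values that were not called, came under these settings. Without replicate 1 of the SA line's wild type, Vcl in wild type with KCl was -0.0494, Cyr61 in SA against wild type was 0.00545 at basal and 0.0298 with KCl, and Srf was 0.0216 with KCl. With the replicate block, Ctgf in SA was 0.00344 and Cyr61 in SE against wild type with KCl was 0.13. With 1 library left out, the difference in KCl response between lines ran from -0.0511 to 0.45 for Amotl2, -0.0427 to 0.53 for Flna and -0.0823 to 0.40 for Vcl. KCl against basal ran in SA from -0.57 to 0.68 for Ctgf, -0.50 to 0.52 for Flna and -0.29 to 0.61 for Vcl, and in wild type from -0.10 to 0.54, -0.19 to 0.43 and -0.20 to 0.34 for the same genes. Cyr61 in SA against wild type ran from -0.49 to 0.80 for the response, -0.82 to 0.0298 with KCl and -1.26 to 0.0314 at basal, and in SE with KCl from -0.19 to 0.0432. Srf in SA ran from -0.0196 to 0.27 for the response, -0.0317 to 0.0216 with KCl and -0.28 to 0.0143 at basal. The cause was not tested.

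Counts over all genes ranged, over the alternatives, from 68 to 613 in SA with KCl (main value 150), 114 to 1024 in SE (295), 30 to 829 in wild type (250), 12 to 133 for the line response (19) and 6598 to 8597 between lines at basal (8128). They reached 119 for SA with KCl, 12 for SE with KCl, 3 for SE at basal, 2 for the SE response and 1 for SA at basal, each with a main value of 0.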
